A study of Mus musculus with 2 samples.

Results

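The 10 genes described here, *Dusp4*, *Dusp6*, *Spry1*, *Spry2*, *Spry4*, *Etv4*, *Etv5*, *Egr1*, *Fos* and *Phlda1*, are genes that cells transcribe when the kinase ERK is active. They were chosen by symbol as known feedback regulators and targets of this kinase, and all 10 were among the 19430 genes named in the tables. Signals from growth factor receptors reach ERK through the small GTPase Ras and the kinases Raf and MEK, and neurofibromin, the product of *Nf1*, switches Ras off. Active ERK raises the transcription of immediate early factors and of inhibitors that act back on the pathway, such as the Dusp phosphatases and the Sprouty proteins, so the RNAs of these genes are often read as a sign of recent ERK activity. In the growth plate, FGFR3 signaling through ERK is known to restrain chondrocyte growth and hypertrophy.

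The data were spatial transcriptomes (Visium) of distal tibia fracture calluses collected 10 days after injury from female littermates 8 weeks old. The control carried 1 floxed and 1 wild-type allele of *Nf1* without *Postn*-cre, and the Nf1Postn mutant carried *Postn*-cre with 1 floxed and 1 null allele, so a floxed allele was common to both. In the mutant, Cre is driven by the *Postn* promoter, which is known for its activity in periosteal and other mesenchymal cells, and cells that never used this promoter keep the floxed allele. Both calluses lay in 1 block, from which 2 sections were measured (labelled as biological replicates), so each genotype was 1 mouse and the sections are repeated measurements of the same tissue. No test between genotypes is therefore possible, and no p-value is given. Each level is the number of UMIs of a gene per 1000000 UMIs of the same spots (CPM), summed over spots, with an exact Poisson 95% interval that covers counting error only.

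Control spots numbered 1700 in section 1 and 1778 in section 2, with a median of 7053 and 5718.5 UMIs, and mutant spots numbered 1341 and 1556, with a median of 2030 and 3239.75 UMIs. A spot holds several cells, and fewer cells of a type cannot be told apart from less RNA per cell. *Nf1* itself stood at 87.8 CPM (82.9 to 92.9) and 79.0 CPM (74.1 to 84.2) in the control sections against 65.6 CPM (57.3 to 74.7) and 49.6 CPM (44.1 to 55.6) in the mutant. The defining markers of bone, cartilage and muscle were all above 0 in both calluses, in very different amounts. The 7 chondrocyte markers summed to 45768 and 28856 CPM in the control sections and to 4018 and 8075 CPM in the mutant, and the 6 osteoclast markers to 7609 and 6369 against 3604 and 1606 CPM. The 6 skeletal muscle markers summed to 12030 and 18039 CPM in the control and to 55042 and 99590 CPM in the mutant. Their part in the genotype differences of the ERK genes was not tested, beyond the comparisons within regions given further on.

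In the mm39 assembly, 8 of the 10 genes lie as follows: *Dusp4* at chr8:35274451-35287049, *Dusp6* at chr10:99099093-99103352, *Spry1* at chr3:37694096-37698748, *Spry2* at chr14:106129381-106134254, *Etv4* at chr11:101660568-101676198, *Etv5* at chr16:22200059-22258470, *Fos* at chr12:85520664-85524048 and *Phlda1* at chr10:111342147-111344507.

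ETS factors, which include ETV4, ETV5 and the ELK proteins phosphorylated by ERK, bind DNA at a GGAA core, and the promoters of 5 of the 10 genes, from RefSeq (GRCm38.p6), were searched for it. The 250 bases before the transcription start are shown for *Dusp6*, *Spry1* and *Spry2*, the 3 of these whose level was at least 2-fold lower in a cartilage region of the control callus. Capitals mark each GGAA or its reverse complement TTCC, and each sequence runs 5′ to 3′ on the gene's strand. *Dusp6* is on the plus strand at chr10:99262981-99263230, *Spry1* on the plus strand at chr3:37639697-37639946 and *Spry2* on the minus strand at chr14:105896820-105897069.
Dusp6: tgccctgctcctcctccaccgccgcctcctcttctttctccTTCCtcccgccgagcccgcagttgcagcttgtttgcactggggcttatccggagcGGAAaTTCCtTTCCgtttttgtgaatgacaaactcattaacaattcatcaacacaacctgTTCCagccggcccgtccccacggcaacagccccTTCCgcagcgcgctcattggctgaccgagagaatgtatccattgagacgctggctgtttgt
Spry1: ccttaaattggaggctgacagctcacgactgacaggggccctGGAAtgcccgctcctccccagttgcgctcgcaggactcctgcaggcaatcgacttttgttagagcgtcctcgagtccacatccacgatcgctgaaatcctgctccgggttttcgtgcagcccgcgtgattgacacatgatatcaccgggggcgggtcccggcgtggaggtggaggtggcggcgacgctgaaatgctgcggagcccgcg
Spry2: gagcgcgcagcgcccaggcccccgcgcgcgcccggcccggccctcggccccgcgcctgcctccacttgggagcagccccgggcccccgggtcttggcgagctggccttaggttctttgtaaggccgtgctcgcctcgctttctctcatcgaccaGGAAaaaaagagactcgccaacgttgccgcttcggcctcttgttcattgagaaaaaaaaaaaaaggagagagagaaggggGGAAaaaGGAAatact

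The core occurred 6 times before *Dusp6*, 3 times before *Spry2* and 1 time before *Spry1*. The *Fos* promoter held 5 cores, and the 2 listed *Etv5* promoters held 4 and 0. Among 32851 promoters of the same length, from 27025 genes, 93.4% held at least 1 core, the median was 3 and 18.03% held 5 or more. Neither a CArG box, the site of serum response factor, nor the cAMP response element TGACGTCA was found on either strand in any of the 6 member promoters, against 1.47% and 1.55% of all promoters. Only exact matches within the 250 bases were searched, so sites further upstream or with other letters would not be counted. These counts describe letters in the sequence and say nothing of binding.

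The first question was whether the callus lacking *Nf1* in *Postn*-expressing cells held more RNA of these genes than the control. No member differed by 2-fold in the same direction in both sections. Among the 11956 genes with enough counts, 4.2% were at least 2-fold higher and 1.61% at least 2-fold lower in the mutant in both sections, and 0 of the 10 ERK genes were among them. Smaller shifts were seen: *Dusp6*, *Spry1*, *Spry2*, *Etv5* and *Egr1* were higher in the mutant in both sections, *Dusp4* and *Fos* were lower in both, and *Spry4*, *Etv4* and *Phlda1* changed direction between the sections. The median log2 ratio of the 10 was 0.30, beside −0.09 over all genes tested. The shares of all genes tested that kept 1 direction in both sections, or lay apart without overlap, were not counted here or further on. The direction depended on the measure. As a mean over spots of log2(CPM + 1), in which every spot counts alike and a spot without the UMI counts as 0, all 10 genes were lower in the mutant, from −0.11 for *Spry2* through −0.47 for *Etv5*, −0.72 for *Spry1*, −1.03 for *Dusp6* and −1.04 for *Egr1* to −1.50 for *Fos*. By that measure *Dusp4* and *Fos* were lower by at least 2-fold in both sections, as were 21.1% of all genes tested. At least 2-fold higher in both sections were 0.602% of all genes tested and none of the ERK genes. Mutant spots were also shallower, and the part of depth in these values was not tested. Spots deep enough were also thinned to equal depth, and those with a UMI of the gene counted. Over both sections their share was higher in the mutant for *Dusp6* (11.8% against 8.84%), *Spry1* (7.59% against 6.30%) and *Spry2* (2.22% against 1.58%). *Etv5* (5.10% against 3.88%), *Etv4* (1.60% against 1.49%) and *Egr1* (9.61% against 9.31%) were higher too. *Dusp4* (5.06% against 6.81%), *Fos* (5.14% against 7.22%), *Spry4* (1.52% against 1.70%) and *Phlda1* (1.95% against 2.12%) were lower. *Etv4* changed direction between the sections, with 2.40% against 1.03% in section 1 and 0.97% against 1.95% in section 2. So did *Phlda1*, with 1.69% against 2.36% and 2.15% against 1.89%. The shares of all genes that moved each way after thinning were not counted. The levels that follow are pooled CPM.

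**Figure D1:**
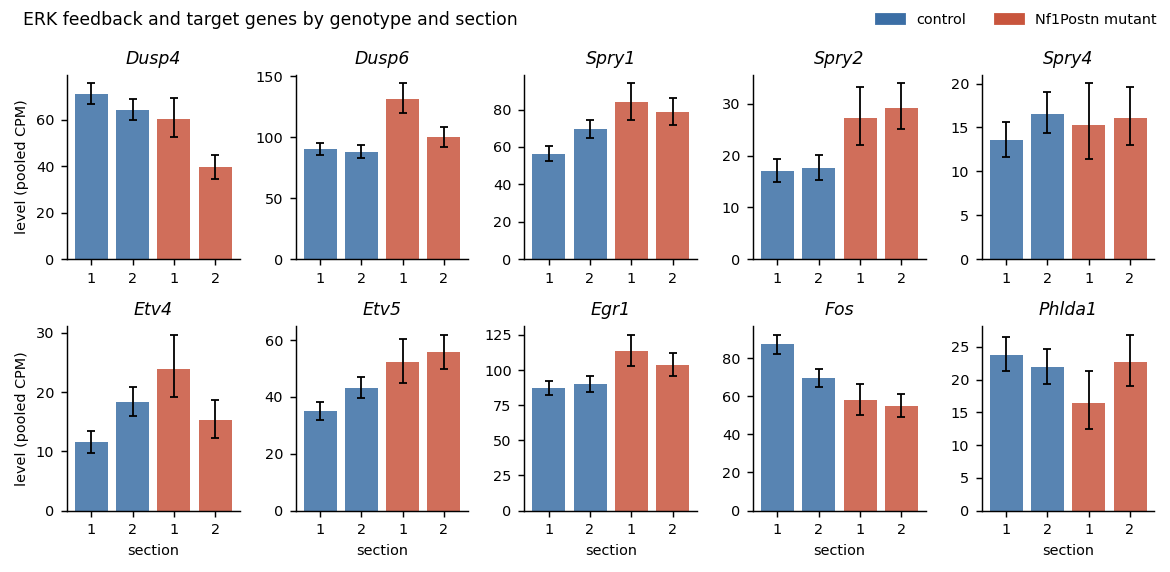
Level of each gene in pooled CPM (linear axis from 0) in control (blue) and Nf1Postn mutant (red) sections 1 and 2. Bars are sums over all spots of a callus in a section and whiskers are exact Poisson 95% intervals. The mutant bars lie above both control bars for *Dusp6*, *Spry1*, *Spry2*, *Etv5* and *Egr1* and below both for *Dusp4* and *Fos*.

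The dual-specificity phosphatases moved in opposite directions. *Dusp6*, a cytoplasmic phosphatase that acts on ERK, had 90.5 and 88.0 CPM in the control sections and 132 and 100.1 CPM in the mutant, a log2 ratio of 0.32 (0.22 to 0.43). *Dusp4*, its nuclear relative, had 71.0 and 64.3 CPM in the control and 60.4 and 39.6 CPM in the mutant, a log2 ratio of −0.52 (−0.68 to −0.37). For both genes the lowest section of the higher genotype lay beyond the highest section of the other, but the gap was narrow, and *Dusp6* differed more between the mutant sections than between the calluses of section 2.

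Among the Sprouty genes, whose products block the route from receptors to Ras and Raf, *Spry2* showed the largest ratio of the 10 genes. It stood at 17.0 CPM (14.8 to 19.3) and 17.6 CPM (15.3 to 20.1) in the control and at 27.2 CPM (21.9 to 33.2) and 29.2 CPM (25.1 to 33.9) in the mutant, 1.65-fold higher. *Spry1* had 56.3 and 69.6 CPM in the control and 83.8 and 78.9 CPM in the mutant (log2 ratio 0.37, 0.24 to 0.49). *Spry4* overlapped, with 13.6 and 16.6 CPM against 15.3 and 16.04 CPM.

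The ETS factors *Etv4* and *Etv5*, transcription factors induced by FGF signaling, differed from each other. *Etv5* had 35.02 and 43.1 CPM in the control and 52.3 and 55.6 CPM in the mutant (log2 ratio 0.49, 0.33 to 0.64), without overlap. *Etv4* had 11.5 and 18.3 CPM in the control and 24.0 and 15.2 CPM in the mutant, so its log2 ratio was 1.06 in section 1 and −0.27 in section 2.

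*Egr1* and *Fos*, immediate early transcription factors that appear within minutes of a stimulus, also parted. *Egr1* had 87.4 and 90.0 CPM in the control and 114 and 104 CPM in the mutant, whereas *Fos* had 87.3 and 69.4 CPM in the control and 58.1 and 55.0 CPM in the mutant. The log2 ratios were 0.27 (0.17 to 0.38) and −0.49 (−0.63 to −0.35). *Phlda1*, which encodes a pleckstrin homology-like protein induced by growth factors, had 23.8 and 21.9 CPM in the control and 16.5 and 22.7 CPM in the mutant, with overlap.

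Because the calluses differed in tissue composition, the spots were grouped into 16 regions by expression, with the ERK genes and the pathway genes left out of the grouping, and each region is called by its leading genes. The same region weights could be given to both genotypes only for the 5 regions with at least 20 spots of each genotype in each section. Each weight was the region's share of the control spots of these regions, so the weights differed between regions. These 5 regions leave out those led by *Acp5*, *Ucma* and *Col10a1*. With each of these 5 given the same weight in both genotypes, *Dusp4* had a log2 ratio of 0.08, against −0.52 over all spots. These values cover different spots, and the part of composition in them was not tested. Under the same weights *Dusp6* was at 0.13, *Spry2* at 0.29, *Etv5* at 0.16, *Spry1* at 0.44 and *Egr1* at 0.51, all above 0, and *Fos* was at −0.25. With regions led by muscle or globin genes left out, *Egr1* reached a log2 ratio of 1.05 and passed 2-fold in both sections, as did 32 higher genes of 8837 tested. It no longer did (0.69) when a mutant region led by *Cadm4* was left out as well, an alternative added after seeing the data.

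Of 5 regions with at least 20 spots of each genotype in each section, 4 gave 19 pairs of an ERK gene and a region with enough counts. None of the 19 reached 2-fold in both sections, where 0.905% of all gene and region pairs did. *Etv4* was the 1 gene at least 1.5-fold different in both sections of a region, the one led by *Hba-a2*, *Hbb-bs* and *Bglap*, which combines blood and bone genes. It had 33.7 and 39.9 CPM there in the mutant against 19.4 and 26.1 CPM in the control, and the interval of the log2 ratio spanned 0 (0.61, −0.07 to 1.31). In the same region *Egr1* had 99.7 and 96.1 CPM in the control sections and 137 and 137 CPM in the mutant (log2 ratio 0.50, 0.16 to 0.84). In the region led by *Prg4*, *Adipoq* and *Cfd*, it had 128 and 103 CPM in the control and 175 and 194 CPM in the mutant (0.67, 0.23 to 1.09). In both regions the mutant sections lay above the control sections. In the regions led by *Igfn1* and by *Retnla*, *Egr1* went in opposite directions in the 2 sections or had a pooled ratio near 0: the log2 ratio was −0.41 and 0.86 in the first and −0.17 over both sections in the second. *Fos* in the *Prg4* region was lower in the mutant, at 38.0 and 68.3 CPM against 107 and 85.7 CPM (log2 ratio −0.82, −1.62 to −0.10).

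Between regions of the control callus, some of these genes did differ by the same 2-fold rule. Over 9 control regions, 63 pairs of an ERK gene and a region had enough counts. The shares of all genes called are given below by region. They include 3.81% of all gene and region pairs in the 6 regions where no ERK gene was called. Of the 63 pairs, 7 reached 2-fold in both sections, 5 of them in the same region. This region, led by *Ucma*, *Scrg1*, *Cnmd*, *Rtl3* and *Matn3*, genes of cartilage matrix and its chondrocytes, held 345 control spots and only 10 mutant spots, so it could be described in the control alone. *Dusp4*, *Dusp6*, *Spry1*, *Spry2* and *Spry4* were all at least 2-fold lower there than in the other control spots. The background was high, since 9.73% of the 10408 genes tested were lower by this rule and 1.43% were higher, and the median log2 ratio was −0.24 over all genes and −1.07 over the 10. Of the 10, 9 were below 0 in both sections, and *Phlda1* was above 0 in both.

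**Figure D2:**
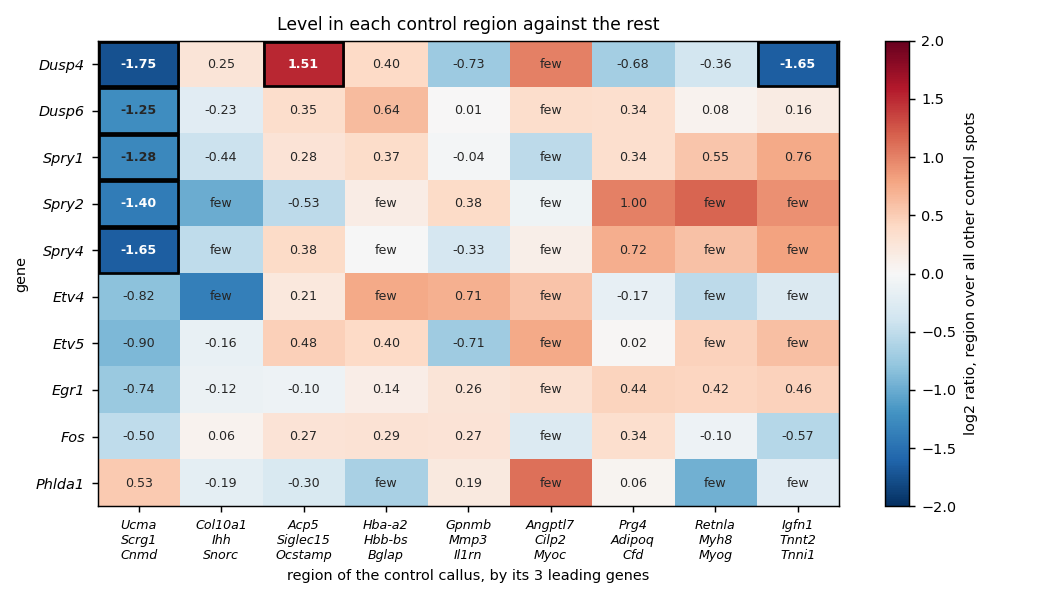
Log2 ratio of the level in a control region over all other control spots, for each gene (rows) and each of 9 regions named by 3 leading genes (columns), colored from blue (lower) to red (higher). Boxes mark ratios of at least 2-fold in both sections, and "few" marks pairs with too few counts. The column of the *Ucma* region is blue for every gene but *Phlda1*, and *Dusp4* is boxed in 3 regions.

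Both phosphatase genes were low in the *Ucma* region. *Dusp4* had 23.6 and 22.2 CPM in the region in sections 1 and 2 against 86.5 and 69.9 CPM in the other control spots, a log2 ratio of −1.75 (−2.04 to −1.47). *Dusp6* had 42.2 CPM in the region in both sections against 106 and 94.0 CPM elsewhere (−1.25, −1.46 to −1.04). The sections nearly coincided inside the region and lay far below the level outside it.

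The 3 Sprouty genes followed the same pattern at lower counts. *Spry1* had 29.9 and 26.5 CPM in the region against 65.0 and 75.3 CPM elsewhere (−1.28, −1.55 to −1.03). *Spry2* had 7.77 and 6.43 CPM against 19.97 and 19.02 CPM (−1.40, −1.94 to −0.90), and *Spry4* had 5.08 and 6.43 CPM against 16.4 and 17.9 CPM (−1.65, −2.28 to −1.07). In each case both sections were lower inside the region than either section outside it.

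The transcription factor genes differed less. *Etv5* had 22.7 and 22.9 CPM in the *Ucma* region against 39.0 and 45.8 CPM elsewhere (−0.90, −1.20 to −0.61), and *Etv4* had 6.88 and 14.3 CPM against 13.02 and 18.8 CPM (−0.82, −1.31 to −0.36). *Egr1* had 58.9 and 53.6 CPM against 96.8 and 94.7 CPM (−0.74, −0.93 to −0.56), and *Fos* had 64.0 and 46.5 CPM against 94.9 and 72.4 CPM (−0.50, −0.69 to −0.32). *Phlda1* went the other way, with 29.9 and 32.2 CPM in the region and 21.8 and 20.6 CPM elsewhere (0.53, 0.25 to 0.80).

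Part of these ratios depends on the total by which counts were divided. A set of 16 cartilage genes took up 13.2% of all UMIs in the *Ucma* region and 3.17% in the other control spots. This lowers the share of every other gene there. The set was the markers of chondrocytes and hypertrophic chondrocytes with *Col9a2*, *Col9a3*, *Col11a1*, *Col11a2* and *Comp*, and not all of them are matrix genes. With these 16 genes left out of the totals, an alternative added after seeing the data, or with TMM scaling, 3 genes (*Dusp4*, *Spry2* and *Spry4*) stayed at least 2-fold lower. As a mean over spots of log2(CPM + 1) none was called lower, where 0.653% of all genes tested were at least 2-fold lower in both sections. *Dusp4* was at −0.83, *Dusp6* at −0.69, *Spry1* at −0.29, *Spry2* at −0.26 and *Spry4* at −0.27. By that measure 4 of the 10 genes were above 0, and *Phlda1* was called higher (1.25). With spots grouped more coarsely the *Ucma* spots merged into larger clusters and, in the cluster that took most of them, none of the 10 was called lower. With finer grouping the region split, and 5 of the 10 were called lower in a cluster of 111 control spots while 0 were in another of 119. The shares of all genes called lower in these clusters, with TMM or with the 16 genes left out are not given here. These counts are therefore not set against a background. A call needs enough counts and 2-fold in both sections. In the cluster of 119 the median pooled log2 ratio was −0.88, with 2 of the 10 above 0 and *Spry2* lowest at −1.95. The pooled ratio of *Dusp4* ran from −2.07 to −1.22 over the 11 alternatives that give one. For each other grouping this takes only the cluster with the most *Ucma* spots. In the cluster of 111 the ratio of *Dusp4* was −2.28, outside that range.

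The *Ucma* region was also compared with the other cartilage region of the control, led by *Col10a1*, *Ihh* and *Snorc*, the collagen and hedgehog ligand of hypertrophic and prehypertrophic chondrocytes. *Dusp4* differed most: it had 23.6 and 22.2 CPM in the *Ucma* region against 78.1 and 83.7 CPM in the *Col10a1* region (log2 ratio −1.78, −2.16 to −1.41). *Dusp6* (42.2 and 42.2 CPM against 81.5 and 65.7 CPM, log2 ratio −0.87) and *Spry1* (29.9 and 26.5 CPM against 42.5 and 57.8 CPM, −0.70) were lower in the *Ucma* region too. *Spry4*, *Etv5*, *Egr1* and *Fos* had log2 ratios of −0.97, −0.63, −0.52 and −0.48, and *Phlda1* of 0.59. *Spry2* (−0.28) and *Etv4* (0.61) could not be separated between the cartilage regions, since the interval of each ratio spanned 0. *Spry2* was low in both, at 7.38 CPM over both sections in the *Ucma* region and 8.93 CPM in the *Col10a1* region, whereas *Dusp4* was low in the first alone.

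**Figure D3:**
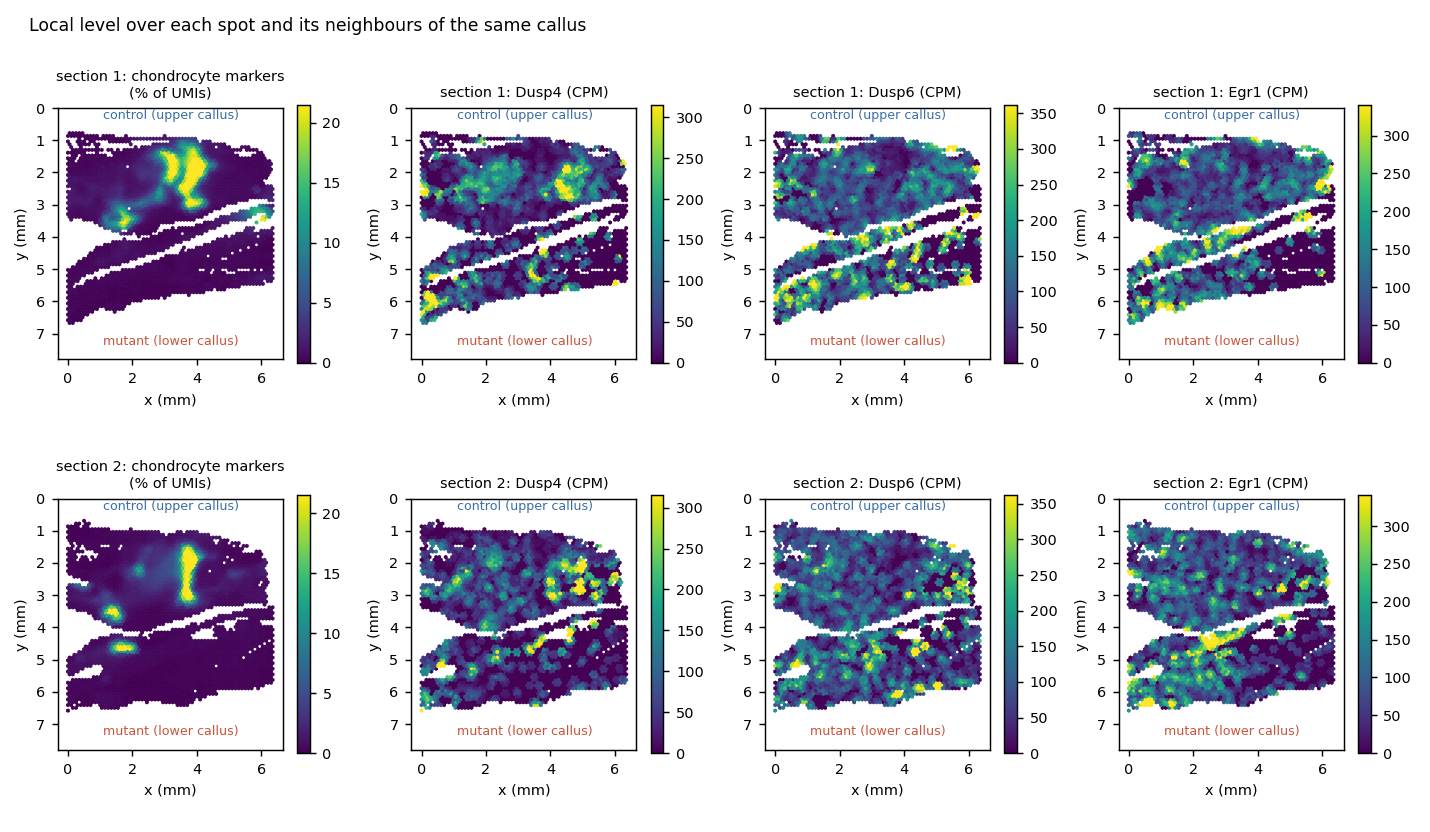
Spot maps of section 1 (top) and section 2 (bottom), with axes in mm, of the share of UMIs from 7 chondrocyte markers and of the local level (CPM) of *Dusp4*, *Dusp6* and *Egr1*. Each value is summed over a spot and its neighbors of the same callus, with colors capped at the 98th percentile over both sections, and the control is the upper callus. *Dusp4* is dark over part of the chondrocyte marker band and bright beside it, and *Egr1* is bright in a strip along the upper side of the mutant callus.

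To follow cartilage without region borders, the control spots of each section were also ordered by the share of their UMIs from the 7 chondrocyte markers. Each section was cut into 5 bins of equal size, with these markers left out of the totals, and the bins were then pooled. This ordering was added after seeing the data. The highest bin began at a share of 6.86% in section 1 and 3.28% in section 2, so the pooled bins are not a common scale of cartilage. The median marker share rose from 0.267% in the lowest bin through 0.591%, 1.09% and 2.45% to 11.5% in the highest. *Spry2* had the steepest gradient, from 30.1 CPM in the lowest bin through 17.1, 14.1 and 16.1 to 8.63 CPM in the highest (log2 ratio of highest over lowest bin −1.80, with −2.27 and −1.36 in the sections). *Spry4* (−1.06), *Spry1* (−0.96), *Dusp6* (−0.86) and *Etv4* (−0.84) had shallower ones, followed by *Egr1* (−0.60), *Etv5* (−0.49) and *Fos* (−0.21).

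*Dusp4* and *Phlda1* did not follow this order. *Dusp4* ran through 46.9, 76.5, 94.98, 83.2 and 54.6 CPM from the lowest to the highest bin and so was highest in the middle. *Phlda1* was at 19.9 and 19.6 CPM in the lower bins and 33.1 CPM in the highest (0.73, with 0.87 and 0.58 in the sections). *Dusp6* was level over the lower bins, at 98.9, 105 and 108 CPM, and dropped to 91.3 and 54.6 CPM in the upper ones. In the same bins *Fgfr3*, the receptor that is known to signal through ERK in chondrocytes, rose from 64.4 to 447 CPM. The highest bin thus combined the highest level of this receptor with the lowest levels of *Dusp6*, *Spry1*, *Spry2*, *Spry4*, *Etv4*, *Etv5*, *Egr1* and *Fos* over both sections. By section, the lowest bin was another for *Spry1* and *Egr1* in section 2 and for *Fos* in section 1.

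**Figure D4:**
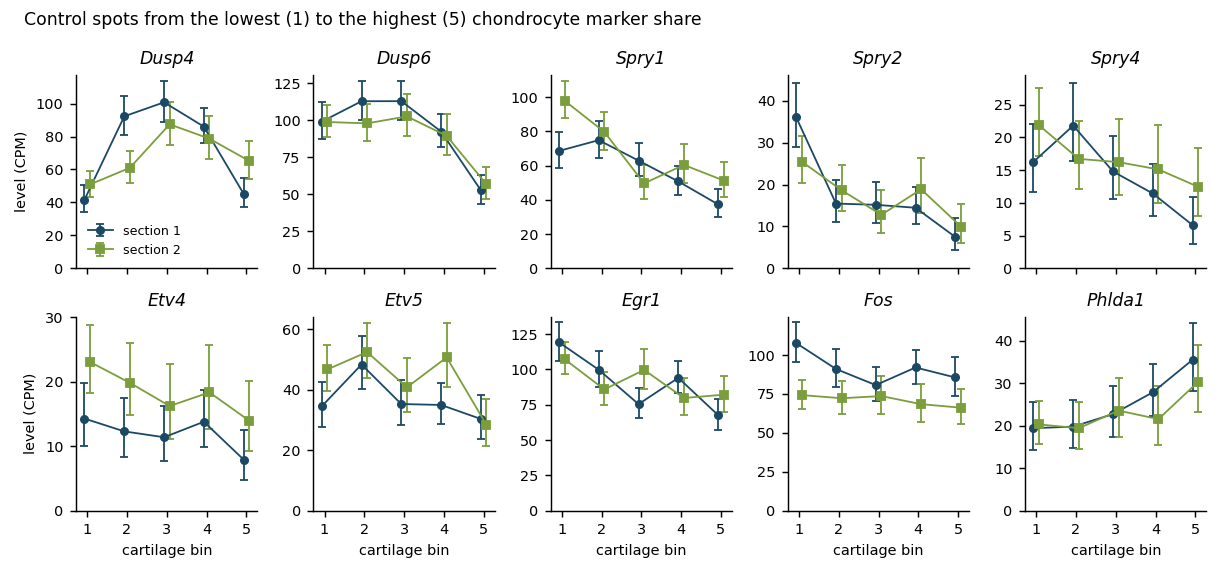
Level (CPM, linear axis from 0) of each gene in control spots cut into 5 bins of equal size from the lowest (1) to the highest (5) share of chondrocyte markers, for section 1 (circles) and section 2 (squares) with exact Poisson 95% intervals. *Spry2*, *Spry4* and *Dusp6* end lowest in bin 5 in both sections, *Spry1* does so in section 1 alone, *Dusp4* peaks in bin 3 in both sections and *Phlda1* is highest in bin 5.

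The mutant callus held few cartilage spots, and the median marker share of its highest bin was 1.02%, below that of the control's middle bin. Over these mutant bins *Spry2* had a log2 ratio of −0.38 and *Dusp4* of 0.80, and the bins of the 2 genotypes were not matched in cartilage content.

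*Dusp4* was the 1 gene of the 10 called higher in a control region. In the control region led by *Acp5*, *Siglec15*, *Ocstamp*, *Mmp9* and *Rufy4*, genes of osteoclasts, it had 142 and 108 CPM in sections 1 and 2 against 39.2 and 51.3 CPM in the other control spots (log2 ratio 1.51, 1.37 to 1.65). The region held 732 control spots, and its 6 osteoclast markers summed to 16153 CPM, against 1818 CPM in the *Ucma* region. Its 7 osteoblast markers summed to 62373 CPM and its 5 osteocyte markers to 2464 CPM, each the highest of the 16 regions. These spots thus mixed bone cell types, and the *Dusp4* RNA cannot be assigned to 1 of them. Of the genes tested, 1.43% were higher and 4.04% lower there by the same rule, and 1 of the 10 ERK genes was higher and 0 were lower. At resolution 1.0 the region split, and *Dusp4* was called higher in 1 of the resulting clusters (1.67) and lower in another (−1.28). *Etv5* (0.48), *Spry4* (0.38), *Dusp6* (0.35) and *Fos* (0.27) were also above 0 in both sections there, and *Spry2* (−0.53), *Phlda1* (−0.30) and *Egr1* (−0.10) were below 0 in both.

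*Dusp4* was low again outside cartilage, in the region led by *Igfn1*, *Tnnt2*, *Tnni1* and *Myh3*, which include genes of regenerating muscle. It had 26.8 and 21.8 CPM there against 71.9 and 70.2 CPM elsewhere in the control (−1.65, −2.15 to −1.20). It was the 1 ERK gene called in that region, where 2.06% of tested genes were lower. *Spry1* pointed the other way in the same spots, with 103 and 101 CPM against 55.4 and 65.3 CPM (0.76, 0.53 to 0.99). In the other 6 control regions none of the ERK genes was called, against 3.81% of all gene and region pairs. The nearest was *Spry2* in the *Prg4* region, with 32.6 and 30.8 CPM against 15.4 and 16.3 CPM (1.00, 0.62 to 1.37).

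In the mutant callus *Egr1* was the 1 ERK gene with a called region. The region was led by *Cadm4*, *Gap43* and *Lgi4*, genes of glia and nerve, and held 83 mutant spots and 4 control spots. Over both genotypes its 5 Schwann cell markers summed to 458 CPM, below the 584 CPM of the region led by the muscle myosin gene *Myh7*, and its 6 periosteum and fibroblast markers summed to 19017 CPM, the highest of the 16 regions. *Egr1* had 297 and 333 CPM there against 101 and 94.1 CPM in the other mutant spots, a log2 ratio of 1.71 (1.44 to 1.96). By the same rule 2.4% of tested genes were higher. *Dusp6* had 288 and 147 CPM in these spots against 121 and 98.1 CPM elsewhere (1.01, 0.70 to 1.31), so it was past 2-fold in section 1 only. *Fos* had 59.4 and 160.1 CPM against 58.0 and 50.6 CPM, which rested on section 2. In the other 9 mutant regions none was called, against 4.15% of all gene and region pairs. Many pairs of an ERK gene and a region had too few counts there. All 10 had enough in the regions led by *Hba-a2* and by *Retnla*, and 0 did in those led by *Myh7* and by *2310002L09Rik*.

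Distance from the *Col2a1* center, the median position of the *Col2a1* UMIs of a callus in a section, was the second measure of position. This point need not be the middle of the callus. Along the callus axis, control spots ran from −3.64 to 2.74 mm in section 1 and from −3.66 to 2.56 mm in section 2. Mutant spots ran from −3.85 to 3.15 mm and from −2.04 to 4.78 mm. Near and far spots were therefore not matched in place between the calluses or between the mutant sections. No ERK gene differed by 2-fold in both sections between spots within 1 mm of the center and spots at 3 mm or more. The share of tested genes that did was 3.7% in the control and 1.04% in the mutant. *Spry4* and *Etv4* had too few counts for the rule in both genotypes, and *Spry2* and *Phlda1* in the mutant. In the control, *Spry1* was lower near the center, with 40.5 and 46.4 CPM within 1 mm and 58.5 and 96.6 CPM at 3 mm or more (log2 ratio −0.93, −1.20 to −0.65), and *Spry2* likewise, with 12.9 and 13.9 CPM against 32.2 and 22.1 CPM (−0.96, −1.45 to −0.45). *Dusp4* was highest between 1 and 2 mm, at 95.03 and 88.0 CPM, against 58.6 and 60.0 CPM within 1 mm. *Phlda1* was higher near the center, with 29.0 and 25.7 CPM against 16.1 and 20.4 CPM. As a mean over spots of log2(CPM + 1), *Spry1* and *Spry2* differed much less, at −0.11 each, and the other 8 genes were above 0 in the control.

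In the mutant the pattern of *Spry1* was turned, with 99.4 and 84.98 CPM within 1 mm and 58.3 and 65.3 CPM at 3 mm or more (0.48, 0.16 to 0.81). The median log2 ratio of all genes tested was 0.44 in the mutant and 0.02 in the control, and the ratio of *Spry1* in the mutant lay close to the former. *Egr1* in the mutant depended on the section. It had 119 CPM near and 128 CPM far in section 1, and 144 CPM near and 33.4 CPM far in section 2, so its pooled ratio of 1.48 came from section 2. *Fos* behaved alike, with log2 ratios of −1.18 and 1.57 in the sections.

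**Figure D5:**
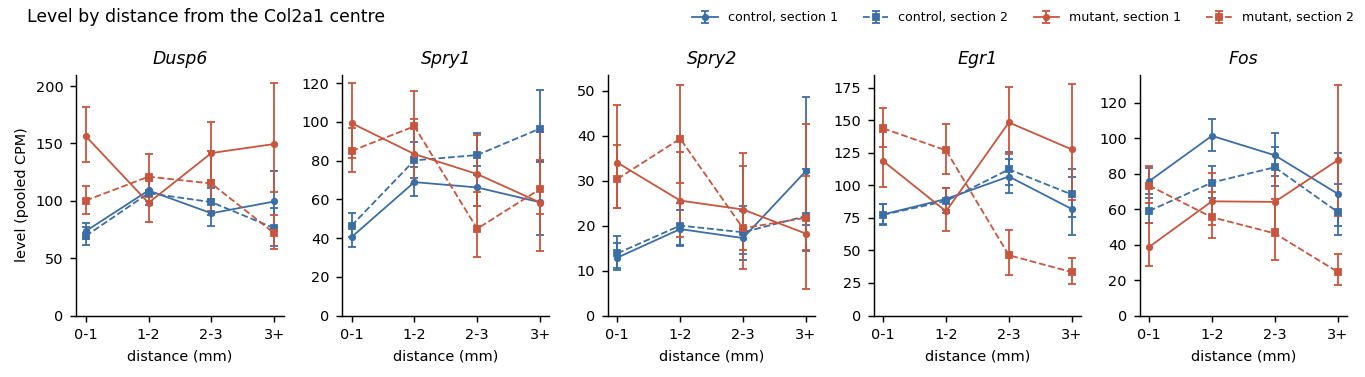
Level (pooled CPM, linear axis from 0) of 5 of the genes by distance in mm from the *Col2a1* center, for control (blue) and mutant (red) in section 1 (solid) and section 2 (dashed), with exact Poisson 95% intervals. *Spry1* is lowest in the first bin in both control sections and above the control there in both mutant sections, and *Egr1* falls with distance in mutant section 2 alone.

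Depth within the tissue gave a further contrast between *Dusp4* and *Spry2* in the control. Spots up to 2 steps from the tissue edge were set against spots at least 5 steps inside, and none of the ERK genes reached 2-fold in both sections, where 3.91% of tested genes did in the control and 0.388% in the mutant. *Dusp4* was lower at the edge, with 41.7 and 47.96 CPM against 98.6 and 77.9 CPM inside (log2 ratio −0.99, −1.17 to −0.81). *Spry2* was higher at the edge, with 23.7 and 22.9 CPM against 13.2 and 11.6 CPM inside (0.90, 0.57 to 1.22). In the mutant both were near 0, at 0.09 and 0.01, and *Spry4* and *Phlda1* had too few counts for the rule.

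How patchy each gene was from spot to spot was described by Moran's I, which is near 0 for a random arrangement and higher when neighboring spots have like levels. *Dusp4* had the highest values of the 10 in the control, 0.246 and 0.179 in sections 1 and 2, above 94.0% and 93.9% of the genes with enough counts. *Fos* (0.171 and 0.0911), *Egr1* (0.142 and 0.0762) and *Dusp6* (0.112 and 0.0688) came next in section 1, and *Spry4*, *Phlda1*, *Etv5*, *Spry2* and *Etv4* were below the median of all genes (0.0256) in that section. In section 2 the order of the low genes was another: *Etv4* (0.0790) lay above *Egr1* and *Dusp6*, *Spry4* (0.0454), *Spry2* (0.0280) and *Phlda1* (0.0239) lay above the median of all genes (0.0198), and *Etv5* (0.0190) alone lay below it. The counts behind these values ranged from 156 UMIs for *Etv4* to 1228 UMIs for *Dusp6* in section 1, and their part in the order was not tested.

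The genes whose levels were most like each member were found by Pearson correlation of log2(CPM + 1) over 22 groups, each a control region in 1 section, as a description with no test. The groups share sections and totals, the smallest held 23 spots and 7920.5 UMIs, and the values over the 19 groups with at least 100000 UMIs are given second. *Dusp4* was most like *Spata13* (0.95 and 0.87), the proton pump subunit gene *Atp6v1b2* (0.95 and 0.89) and *Rufy4* (0.95 and 0.92), and *Rufy4*, *Ckb* and *Acp5* came first over the 19 larger groups. *Dusp6* was most like *Ushbp1* (0.98 and 0.88) and *Spry1* most like *Notch3* (0.97 and 0.84), a receptor of mural cells. *Egr1* was most like *Rab32* (0.87 and 0.89). *Spry2*, *Spry4* and *Etv4* had under 500 UMIs in the control and were given no match.

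The 10 genes did not move as 1 block. Over the 19 larger groups 37 of their 45 pairs had a correlation above 0 with a median of 0.34, and the range ran from −0.64 for *Etv5* with *Phlda1* to 0.81 for *Spry1* with *Egr1*.

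The other genes of the pathway were taken from fixed lists. Between genotypes over all spots, 1 of 17 tested genes of the ERK cascade was called: *Ksr1*, a scaffold for Raf and MEK, was higher in the mutant (220.4 against 91.7 CPM, log2 ratio 1.26). Within the control, *Ksr1* was also higher in the regions led by *Retnla* (238 against 88.3 CPM elsewhere) and *Igfn1* (222 against 82.4 CPM). Both had muscle genes among their leading genes, and muscle markers were higher in the mutant. The part of muscle in the *Ksr1* difference was not tested. Between genotypes within regions, no ERK cascade gene with enough counts was called. Over all spots none of 13 other feedback genes was called, and 10 of them were lower in the mutant in both sections. Another 1 of the 13 was higher in both sections. The median log2 ratio of these feedback genes was −0.29, beside −0.09 over all genes tested. Among 14 further ERK targets *Ptgs2*, the inducible cyclooxygenase gene, was lower (14.7 against 65.1 CPM, −2.14), and among 21 other immediate early genes *Ccn1* was lower (307 against 697 CPM, −1.18). Of 14 receptor genes, *Erbb3*, a neuregulin receptor of Schwann cells, was higher (22.9 against 5.88 CPM, 1.96) and *Fgfr3* lower (39.0 against 151 CPM, −1.96), and the Schwann cell and chondrocyte markers moved the same way as these receptors between the calluses.

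In the *Ucma* region none of 12 other feedback genes was called, 10 were lower in both sections and their median log2 ratio was −0.40. *Ksr1* (−1.38) and the receptor genes *Csf1r* (−1.97) and *Met* (−1.44) were lower there, and so was *Cdc42ep2* (−1.10). *Fgfr3* (1.77, at 356 against 105 CPM), *Ptgs2* (1.79), *Ccn1* (1.34) and *Ccn2* (1.14), the last a matrix-associated growth regulator of cartilage, were higher. Immediate early genes lay on both sides in these spots, with *Egr1* and *Fos* below the other control spots and *Ccn1* and *Ccn2* above them.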

How the data were processed

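Spatial transcriptomes of 2 formalin-fixed sections, decalcified in 14% EDTA, were measured with probe pairs for mouse genes, so levels of different genes were not compared. The authors deposited unnormalized counts of UMIs for every gene in every spot, made with Space Ranger 1.3.0 and the mm39 assembly per the submitters' processing notes and exported from Partek Flow, with a genotype label and a position for each spot. In each section 10 entries of the deposited tables, 9 of them named, were not whole, and the tables were treated like expected counts. 1 entry without a gene name (6.8e-05% and 3.8e-05% of UMIs) and 5 spots without a genotype were left out. The sections share 2711 barcodes, which are array positions.

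Counts were summed over the spots of a group and divided by the total UMIs (CPM), with exact Poisson 95% intervals for levels and conditional exact intervals for log2 ratios. PCR copies were already collapsed to UMIs, and intervals cover counting error only. A gene was tested where at least 10 UMIs were expected in the smaller group in each section, and called where both sections differed by at least 2-fold the same way. Regions came from Leiden clustering (leidenalg 0.10.2, resolution 0.5) of 16809 genes on 20 principal components and 15 neighbors, with 93 listed genes left out. Spots with under 1000 UMIs were 128 in the control and 328 in the mutant. On simulated counts for the genotype comparison over 19430 genes, 100% of 100 genes changed 4-fold and 0% of 100 genes changed 1.5-fold were called, as were 0% of 11823 unchanged genes. These were Poisson draws from a profile shared by both genotypes, with the changed genes picked well above the count filter. Differences between mice, sections or tissue composition were not simulated, so these shares concern counting error only.

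The members and gene lists were chosen with earlier results of these data known. Etv1, Spry3, Rps6ka1 and Rps6ka3 of the lists were not used here. All members are named, and other genes of the lists where they were called between genotypes over all spots or in the *Ucma* region. Alternatives were each section alone, mean log2(CPM + 1), spots of at least 1000 UMIs, TMM (edgeR 4.0.16), 1.5-fold, no filter and thinning to 1000 UMIs. Further ones were other clusterings, the same region weights in both genotypes and other definitions of near and edge. Alternatives added after seeing the data left the 16 cartilage genes out of the totals or the *Cadm4* region out of the spots.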

Additional observations from a re-analysis of the deposited data

Results flagged for a closer look

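The slope of 2 genes with distance from the *Col2a1* center went in opposite directions in the calluses, in both sections of each, and the difference itself was not tested. The log2 ratio of *Spry1* within 1 mm over 3 mm or more was −0.53 and −1.06 in the control sections and 0.77 and 0.38 in the mutant, a pooled difference of 1.41 (mutant minus control). For *Dusp6* the ratios were −0.44 and −0.14 in the control and 0.06 and 0.48 in the mutant, a difference of 0.71. As a mean over spots of log2(CPM + 1), *Spry1* was at −0.11 and *Dusp6* at 0.43 in the control. The center was set by 537284 and 303679 *Col2a1* UMIs in the control and by 10572 and 40179 in the mutant, and the median ratio of all genes tested was 0.02 in the control and 0.44 in the mutant. Spots at 3 mm or more lay at 1 end of the axis in the control and in mutant section 2 and at both ends in mutant section 1. They were not matched in place between the calluses.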

How the results depend on the processing

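The counts below are of the ERK genes only, without the shares of all genes called under each alternative. Over all spots, 0 of 10 genes differed between genotypes by the 2-fold rule. The count was 0 to 1 in each section alone (*Etv4* in section 1), 2 with mean log2(CPM + 1) (*Dusp4* and *Fos*, lower), 1 at 1.5-fold (*Spry2*), 1 without regions led by muscle or globin genes (*Egr1*), and 0 under the other alternatives. Within regions the count of 0 became 2 to 6 in each section alone, 1 with mean log2(CPM + 1), 1 at 1.5-fold and 1 without the filter on low counts. The 7 calls over control regions became 9 to 16 in each section alone, 12 at 1.5-fold, 1 after thinning and 2 at resolution 0.3. The 5 genes lower in the *Ucma* region became 5 to 6 in each section alone, 0 with mean log2(CPM + 1) and 3 with TMM. Their count was 0 after thinning, 0 at resolution 0.3 and 3 with the 16 cartilage genes left out of the totals. At resolution 1.0 it was 0 in the cluster of 119 control spots and 5 in that of 111. Thinning keeps too few UMIs of the low genes to pass the filter, and at resolution 0.3 the ratio of *Spry2* in the cluster that took most *Ucma* spots was 0.00916, above 0. By distance from the *Col2a1* center 0 became 3 to 4 in each section alone, 1 with near set to under 0.5 mm and 2 with the center set by *Acan* (*Egr1* and *Fos* in the mutant), and by depth from the edge 0 became 0 to 1 (*Dusp4*). The signs of *Dusp6*, *Spry1*, *Spry2*, *Etv5*, *Egr1* and *Fos* between genotypes were the same under the 12 alternatives that give a ratio of pooled levels. Of these, the 1.5-fold rule and the missing filter change only the calls, so their ratios equal the main ones. *Dusp4* was above 0 under 1 of the 12, the same region weights in both genotypes. With mean log2(CPM + 1) all 10 were below 0, from −1.50 (*Fos*) to −0.11 (*Spry2*), so *Dusp6*, *Spry1*, *Spry2*, *Etv5* and *Egr1* turned. No paired analysis was possible because each genotype is 1 mouse. Low depth in the mutant limits what can be seen of *Spry2*, *Spry4*, *Etv4* and *Phlda1* within regions.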
